A study of Homo sapiens with 12 samples.

Results

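Genes that make, bind and break down hyaluronan were examined in 2 human breast cancer cell lines held in synthetic matrices. The 8 genes were the surface receptor CD44, the synthases HAS1, HAS2 and HAS3, the hyaluronidases HYAL1, HYAL2 and HYAL3, and KIAA1199, and they were taken by symbol from the 23368 distinct symbols of the gene count table. No expression value entered that choice, but it was made with earlier results of these libraries known, and CD44 is a gene the study itself drew from them. MDA-MB-231 is an estrogen receptor negative, basal line and T47D an estrogen receptor positive, luminal A line. Both were encapsulated as single cells at 5000 cells per microliter in poly(ethylene glycol) hydrogels that carried 1 peptide, either GFOGER, which mimics collagen, or IKVAV, which mimics laminin. RNA was taken on day 3 after the gels had been dissolved with collagenase, with 3 gels pooled for each library, and no untreated or peptide-free matrix was part of the sequencing. There were 3 libraries each for MDA-MB-231 cells in GFOGER, T47D cells in GFOGER and T47D cells in IKVAV. MDA-MB-231 cells in IKVAV had 2, because the authors left out the third for poor read mapping, and it was not analysed here.

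Hyaluronan is a long, unsulfated sugar chain of the extracellular matrix. It is spun out across the plasma membrane by the HAS enzymes from UDP-glucuronic acid and UDP-N-acetylglucosamine, held at the surface by CD44, and cut by hyaluronidases at the surface and in lysosomes. KIAA1199, now called CEMIP, is a secreted and surface-associated protein that binds hyaluronan and promotes its depolymerization. In breast carcinoma, CD44 is widely used as a marker of basal and mesenchymal-like cells.

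Libraries held 14337035 to 18449108 counts, and 3 counts, taken as the floor of detection, equalled 0.171 to 0.203 cpm (counts-per-million units, scaled by the trimmed mean of M values, TMM). The lowest Spearman correlation of any library with a replicate was 0.981. Whether the pooled gels of different libraries came from separate cultures is not given in the sources used here, so the spread between libraries may be partly technical. The luminal list (7 markers, CDH1, ESR1 and PGR among them) summed to 6258 to 7338 cpm in T47D libraries and 516 to 629 cpm in MDA-MB-231 libraries. The mesenchymal list without CD44 (VIM, ZEB1 and AXL) summed to 2034 to 3905 cpm in MDA-MB-231 libraries and 6.04 to 7.87 cpm in T47D libraries, so each line carried the markers of its label.

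Promoter letters are shown for CD44, KIAA1199 and HYAL1, which were among the members that differed most between the lines. Each window runs from 250 bases before to 50 bases after the RefSeq start on GRCh38.p14, 5′ to 3′ on the gene's own strand, and 7 of the 8 members, all but HAS2, had an entry. Capitals mark the GC box letters GGGCGG on either strand. The windows lie at chr11:35138921-35139220 on the plus strand for CD44, chr15:80779120-80779419 on the plus strand for KIAA1199 and chr3:50303525-50303824 on the minus strand for HYAL1.
CD44: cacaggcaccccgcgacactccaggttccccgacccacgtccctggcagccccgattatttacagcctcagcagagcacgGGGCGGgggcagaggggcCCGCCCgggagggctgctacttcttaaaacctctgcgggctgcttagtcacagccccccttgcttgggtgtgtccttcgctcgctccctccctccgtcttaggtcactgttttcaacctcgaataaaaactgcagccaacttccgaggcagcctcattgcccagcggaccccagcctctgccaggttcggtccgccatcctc
KIAA1199: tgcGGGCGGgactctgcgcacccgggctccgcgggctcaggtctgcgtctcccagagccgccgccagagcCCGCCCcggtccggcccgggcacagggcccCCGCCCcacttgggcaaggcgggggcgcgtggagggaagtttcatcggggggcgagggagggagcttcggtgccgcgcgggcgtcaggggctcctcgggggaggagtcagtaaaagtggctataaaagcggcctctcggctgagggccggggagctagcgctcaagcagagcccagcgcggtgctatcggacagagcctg
HYAL1: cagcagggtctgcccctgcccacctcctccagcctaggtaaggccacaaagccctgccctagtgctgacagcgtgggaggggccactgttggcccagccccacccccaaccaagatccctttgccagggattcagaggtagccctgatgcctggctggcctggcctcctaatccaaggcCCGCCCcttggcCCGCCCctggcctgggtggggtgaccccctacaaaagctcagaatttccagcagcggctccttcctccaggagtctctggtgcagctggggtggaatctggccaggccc
The CD44 window held 2 GC boxes, the KIAA1199 window 3 and the HYAL1 window 2, and 45.0% of all 35116 promoters of that length held at least 1. The AP-1 letters TGANTCA, the TEAD letters GGAATG and the E-box letters CAGGTG, read on both strands, were in none of these 3 windows. Of all promoters, 7.71% held the first, 14% the second and 20.6% the third. Among the other members, HYAL2 held 1 TEAD and 1 E-box match and no GC box. The windows differed in CG dinucleotides, with 32 for KIAA1199, 18 for CD44 and 4 for HYAL1, against a median of 14 over all promoters. These matches are letters only, and which start site the cells used was not measured.

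CD44, the main surface receptor for hyaluronan, lies at 35160417 to 35253949 of chromosome 11 (hg19, as for every gene position here). In MDA-MB-231 cells its level was 2130, 2070 and 1983 cpm with GFOGER and 1742 and 1700 cpm with IKVAV. In T47D cells it was 107.5, 111.6 and 107.3 cpm with GFOGER and 121, 118.1 and 123.3 cpm with IKVAV. The mimics did not overlap in either line, and the GFOGER libraries were the higher ones in MDA-MB-231 cells and the lower ones in T47D cells. CD44 rose with GFOGER in MDA-MB-231 cells by a log2 fold change of 0.25 (SE 0.0817, 1.19-fold, adjusted p = 0.0199, edgeR's quasi-likelihood test). The study named CD44 among the genes increased with GFOGER in this line, under a rule that also asked for a 2-fold change. The 1.19-fold change found here does not meet that rule. In T47D cells the log2 fold change was -0.15 (SE 0.0764, adjusted p = 0.486), which did not pass. A test of the difference between these responses (the interaction of line with mimic) passed, at 0.41 on the log2 scale (SE 0.103, adjusted p = 0.00761). The MDA-MB-231 call did not survive the omission of most single libraries. It was lost without IKVAV replicate 1 (adjusted p = 0.135), IKVAV replicate 2 (0.198), GFOGER replicate 1 (0.116) or GFOGER replicate 2 (0.0533), with the log2 fold change between 0.23 and 0.29 throughout. It was also lost with the library sets that the deposited RPKM values imply as a term of the fit (0.27, adjusted p = 0.139). IKVAV replicate 1 was the only MDA-MB-231 library of its set, so that term is in effect the omission of this library. The interaction was lost without MDA-MB-231 IKVAV replicate 2 alone (0.38, adjusted p = 0.0722). Counts per gene do not separate the splice forms of CD44.

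**Figure D1:**
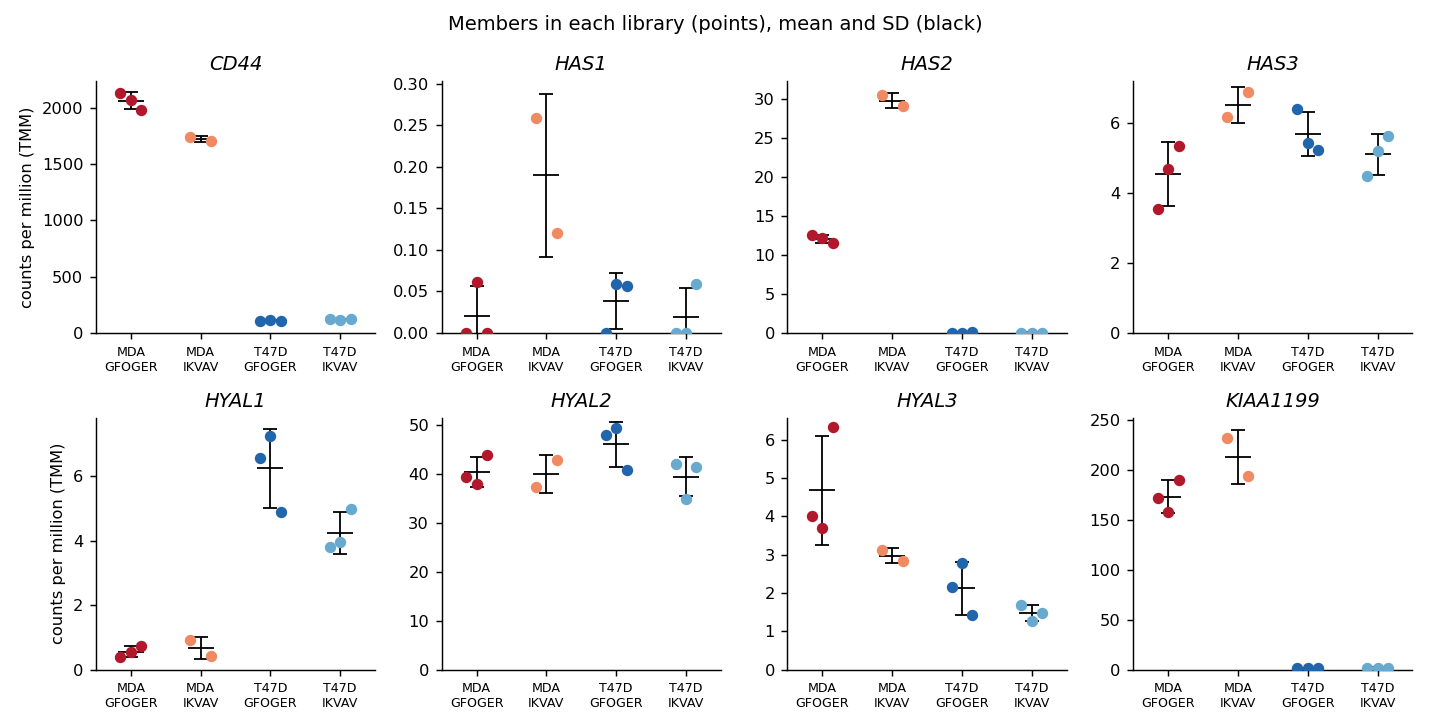
Level of each of the 8 genes in cpm (linear axis from 0, its own scale in each panel) in MDA-MB-231 (MDA) and T47D cells with GFOGER or IKVAV. Points are libraries and black marks the mean and SD (n = 3, or 2 for MDA-MB-231 with IKVAV); CD44 sits between 1700 and 2130 in MDA-MB-231 libraries and between 107.3 and 123.3 in T47D libraries, while HYAL2 overlaps across all 4 conditions.

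Among the synthases, HAS2, an essential enzyme of embryonic development and the main producer of long hyaluronan in many mesenchymal cells, was the member that differed most between the mimics. It lies at 122625271 to 122653630 of chromosome 8. MDA-MB-231 libraries held 220, 197 and 202 HAS2 counts with GFOGER (12.6, 12.2 and 11.5 cpm) and 471 and 483 counts with IKVAV (30.5 and 29.1 cpm). Every IKVAV library was above every GFOGER library. HAS2 fell with GFOGER by 1.31 on the log2 scale (SE 0.133, adjusted p = 1.04e-06, edgeR), so that its level was 2.48-fold higher with IKVAV. The call was kept under all 15 alternatives that test for any difference, with log2 fold changes from -1.34 to -1.27. A stricter test of a change beyond 2-fold gave an adjusted p of 0.117. T47D libraries held 0 to 2 HAS2 counts with either mimic, which is under the floor of 3 counts per library, so no difference between the mimics could be detected there at this depth. The interaction for HAS2 (-2.11, SE 0.994, adjusted p = 0.178) compares the MDA-MB-231 response with those few T47D counts and did not pass.

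HAS3, a synthase of the same family, lies at 69139467 to 69152619 of chromosome 16 and was low and similar in both lines. It stood at 3.54, 4.70 and 5.36 cpm with GFOGER and 6.16 and 6.88 cpm with IKVAV in MDA-MB-231 cells, without overlap. In T47D cells it ranged from 5.24 to 6.40 cpm with GFOGER and from 4.48 to 5.64 cpm with IKVAV, and the mimics overlapped. The MDA-MB-231 difference of -0.53 (SE 0.220, adjusted p = 0.0602) just missed the threshold. It passed without GFOGER replicate 3 (-0.67, adjusted p = 0.0131) and with upper-quartile scaling (-0.56, adjusted p = 0.0482). HAS1, the third synthase (52216365 to 52227221 of chromosome 19), was not tested because no library held more than 4 counts. Its counts were 4 and 2 in MDA-MB-231 cells with IKVAV and 0 or 1 in the other 9 libraries.

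The synthase mix therefore differed between the lines. Per kilobase of gene length, HAS2 made up 76.3% to 87.1% of the summed level of the 3 synthases in MDA-MB-231 libraries, and HAS3 made up 94.5% to 100% in T47D libraries. The summed synthase level of MDA-MB-231 cells was 10.5 ± 0.248 cpm per kb with IKVAV (SD, n = 2) and 4.63 ± 0.0732 with GFOGER (n = 3). In T47D cells it was 1.20 ± 0.106 with GFOGER and 1.06 ± 0.132 with IKVAV (SD, n = 3 each), and these ranges overlapped. RNA levels alone were measured, so neither enzyme activity nor hyaluronan itself enters these sums.

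The degrading enzymes followed no single pattern. HYAL2, a surface-anchored hyaluronidase that cuts long chains, was the steadiest member, with 34.8 to 49.5 cpm over all 11 libraries and overlapping ranges in all 4 conditions. Its log2 fold change was 0.0056 (SE 0.120, adjusted p = 0.976) in MDA-MB-231 cells and 0.22 (SE 0.109, adjusted p = 0.461) in T47D cells. HYAL2 lies at 50355221 to 50360281 of chromosome 3, in one cluster with HYAL1 (50337320 to 50349812) and HYAL3 (50330259 to 50336899). All 3 are annotated on the minus strand, with 420 bases between HYAL3 and HYAL1 and 5408 between HYAL1 and HYAL2. Despite this closeness they had different orders of level over the conditions.

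HYAL1, an acid-active lysosomal hyaluronidase, was at 6.58, 7.26 and 4.90 cpm in T47D cells with GFOGER and 3.80, 3.97 and 4.99 cpm with IKVAV. These overlapped through the lowest GFOGER library and the highest IKVAV library. The log2 fold change was 0.55 (SE 0.202, adjusted p = 0.331). Without IKVAV replicate 3 it passed, at 0.68 (adjusted p = 0.0358, edgeR). The same omission raised the number of genes that passed from 15 to 1080. IKVAV replicate 3 was the only T47D IKVAV library in the lower set of totals that the RPKM values imply. Every T47D GFOGER library was in that set, so without IKVAV replicate 3 mimic and set cannot be told apart. In MDA-MB-231 cells HYAL1 held 7 to 14 counts per library, and its mimic difference of -0.23 (SE 0.554, adjusted p = 0.775) changed sign without IKVAV replicate 1.

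HYAL3, whose own catalytic role is less settled, was measured in MDA-MB-231 cells at 4.00, 3.71 and 6.32 cpm with GFOGER and at 3.11 and 2.83 cpm with IKVAV. These did not overlap, and GFOGER replicate 3 stood highest. The log2 fold change of 0.65 (SE 0.274, adjusted p = 0.0665) did not pass, although it did without GFOGER replicate 1 (adjusted p = 0.0433) or replicate 2 (0.0283). In T47D cells HYAL3 ranged from 1.42 to 2.80 cpm with GFOGER and from 1.28 to 1.70 cpm with IKVAV, with a log2 fold change of 0.51 (SE 0.305, adjusted p = 0.558).

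KIAA1199 (81071712 to 81243999 of chromosome 15) was measured in MDA-MB-231 cells at 172.1, 158.1 and 190.5 cpm with GFOGER and at 232.6 and 193.8 cpm with IKVAV. The ranges were apart by little, since the highest GFOGER library was at 190.5 and the lowest IKVAV library at 193.8. It fell with GFOGER by 0.30 on the log2 scale (SE 0.103, adjusted p = 0.0248, edgeR). The call was lost without IKVAV replicate 1 (-0.17), GFOGER replicate 1 (-0.30, adjusted p = 0.0602) or GFOGER replicate 2 (-0.25, adjusted p = 0.0824). It was lost as well with the RPKM library sets as a term (-0.17, adjusted p = 0.404), in effect the omission of IKVAV replicate 1. In T47D cells KIAA1199 was at 1.37 to 2.20 cpm with overlap between the mimics, and the log2 fold change was -0.058 (SE 0.295, adjusted p = 0.967).

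Counted together, 7 of the 8 members could be tested between the mimics in MDA-MB-231 cells. Of these, 1 rose with GFOGER (CD44), where 21.4% of all 14090 genes tested rose, and 2 fell (HAS2 and KIAA1199), where 21.4% fell. HAS2 alone was also over 2-fold, a rule that 9.57% of all genes met in either direction. The median log2 fold change of the tested members was -0.23 and that of all genes 0.0039. In T47D cells 0 of 6 tested members passed in edgeR, where 0.044% of 13639 genes rose, 0.066% fell and 0.0293% also passed 2-fold. At an unadjusted p below 0.05 there was 1, HYAL1, and DESeq2 called 0 of the 4 to which it gave an adjusted p. For the interaction, 1 of 7 members was positive (CD44, background 10.8%) and 0 were negative in edgeR (background 10.1%), and 0 were over 2-fold (background 6.39%). In either direction 2 had an unadjusted p below 0.05, and DESeq2 passed 1, with 0 over 2-fold.

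**Figure D2:**
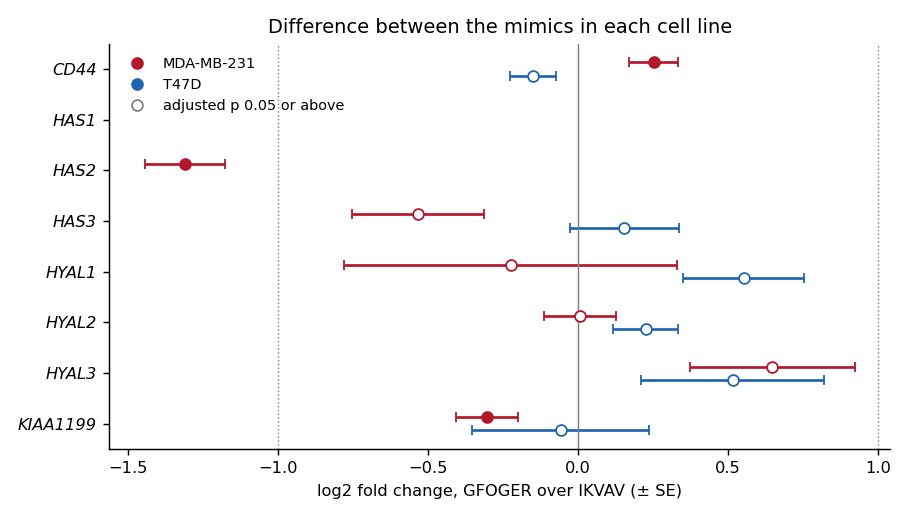
Log2 fold change of GFOGER over IKVAV with its SE for each tested member, in MDA-MB-231 cells (red) and T47D cells (blue); filled points have an adjusted p below 0.05 and dotted lines mark 2-fold. HAS2 at -1.31 in MDA-MB-231 cells is the 1 point beyond 2-fold, and no T47D point is filled.

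Marker lists of cells that the cultures should not hold were read in the same libraries. In MDA-MB-231 cells the fibroblast list summed to 18.5 to 22.9 cpm with GFOGER and 34.2 to 38.4 cpm with IKVAV, with 4 of its 5 markers above 3 counts and DCN at 0 or 1 count. The endothelial list summed to 8.35 to 9.92 cpm with GFOGER and 14.4 to 14.8 cpm with IKVAV, nearly all of it PECAM1, while CDH5 was at 0 or 1 count. Both sums thus moved with the mimic in the direction of HAS2 and KIAA1199. The mesenchymal sum moved the other way, from 2034 to 2080 cpm with IKVAV to 3515 to 3905 cpm with GFOGER, as CD44 did. VIM and AXL carried that sum and rose with GFOGER by 0.67 and 1.42, whereas ZEB1 fell by 0.40 (adjusted p = 0.0025). The leukocyte list summed to 8.12 to 11.4 cpm over both mimics in MDA-MB-231 cells, nearly all CD14, with CD3E at 0. In T47D cells the fibroblast list was higher, at 56.4 to 62.9 cpm with GFOGER and 52.8 to 62.5 cpm with IKVAV, nearly all of it COL1A1. The endothelial and leukocyte sums there were at most 0.183 and 0.535 cpm. The part of these markers in the members' differences was not tested. In bulk RNA, fewer cells of a kind and less RNA per cell cannot be told apart.

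The cell lines were compared over both mimics. Of 7 tested members, 4 were higher in MDA-MB-231 cells (CD44, HAS2, KIAA1199 and HYAL3), where 42% of all 15310 genes were, and 1 was lower (HYAL1), where 42.5% were. All 5 also passed 2-fold, as 46.3% of all genes did in either direction. HAS2 did not pass the filter on low counts within T47D cells, so its difference was largely set in advance by that filter. Only 2 lines were compared, so what belongs to a line and what belongs to its subtype cannot be told apart.

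CD44 was higher in MDA-MB-231 cells by 4.04 on the log2 scale (SE 0.0552, 16.4-fold, adjusted p = 8.52e-23, edgeR). Per kilobase it ranked 101st with GFOGER and 129th with IKVAV among the genes of MDA-MB-231 cells, and 4772nd and 4368th in T47D cells. KIAA1199 was higher by 6.73 (SE 0.113, 106.5-fold, adjusted p = 1.68e-21). HAS2 had 1573 counts over the 5 MDA-MB-231 libraries and 6 over the 6 T47D libraries, a depth-adjusted ratio of 312 with an exact 95% interval of 143 to 851.4 that covers counting error only. HYAL3 was higher by 1.07 (SE 0.212, adjusted p = 0.0001035), the smallest of the 5 differences. With single libraries left out it ranged from 0.94 to 1.19, so it was not over 2-fold throughout.

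HYAL1 went the other way, 8.36-fold lower in MDA-MB-231 cells (log2 fold change -3.06, SE 0.235, adjusted p = 1.5e-10). All 6 T47D libraries, at 3.80 to 7.26 cpm, were above all 5 MDA-MB-231 libraries, at 0.40 to 0.908 cpm. No difference passed for HAS3 (0.012, SE 0.143, adjusted p = 0.939) or HYAL2 (-0.083, SE 0.0826, adjusted p = 0.355). HYAL2 made up 84.0% to 91.9% of the summed HYAL level per kilobase in every library. HYAL1 contributed 6.63% to 10.2% of that sum in T47D cells and 0.741% to 1.79% in MDA-MB-231 cells.

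**Figure D3:**
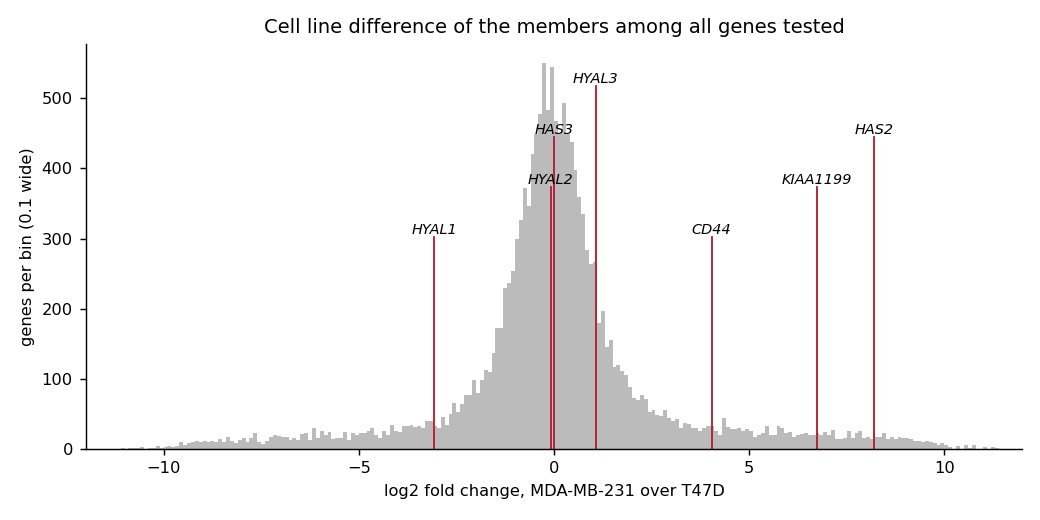
Number of genes (vertical axis) by log2 fold change of MDA-MB-231 over T47D (horizontal axis, bins of 0.1) for all genes tested, with the 7 tested members marked by red lines whose heights carry no value. HAS2, KIAA1199 and CD44 lie far to the right at 8.19, 6.73 and 4.04, HYAL1 lies to the left at -3.06, and HAS3 and HYAL2 lie in the central peak.

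In the order of the 4 conditions by TMM cpm, CD44 alone among the members had no overlapping neighbours (MDA-MB-231 with GFOGER, MDA-MB-231 with IKVAV, T47D with IKVAV, T47D with GFOGER). How many of all genes are apart in this way was not counted, so it does not set CD44 apart from other genes. The step within T47D cells did not pass the test. With the deposited RPKM the order was another for CD44, HAS1, HAS3, HYAL2, HYAL3 and KIAA1199. For HAS2 and KIAA1199 the order was MDA-MB-231 with IKVAV, then MDA-MB-231 with GFOGER, then the T47D conditions, which overlapped. For HYAL1 the T47D conditions overlapped each other and stood above the MDA-MB-231 conditions, which also overlapped. For HYAL3 the order ran from MDA-MB-231 with GFOGER through MDA-MB-231 with IKVAV to the T47D conditions, but the lowest MDA-MB-231 IKVAV library (2.83 cpm) and the highest T47D GFOGER library (2.80 cpm) nearly met. All neighbours overlapped for HAS3 and HYAL2. HAS1 was too near the floor to order, apart from its higher counts in MDA-MB-231 cells with IKVAV.

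Per kilobase, the receptor was the most abundant member in MDA-MB-231 cells. CD44 stood at 309 ± 11.1 cpm per kb with GFOGER (SD, n = 3) and 258 ± 4.45 with IKVAV (n = 2), followed by KIAA1199 at 24.5 ± 2.30 and 30.1 ± 3.88. In T47D cells HYAL2 (19.1 ± 1.92 cpm per kb with GFOGER and 16.3 ± 1.66 with IKVAV) and CD44 (16.3 ± 0.365 and 18.1 ± 0.389) stood close together. HYAL2 was higher than CD44 in every T47D library with GFOGER (16.9 to 20.5 against 16.1 to 16.7 cpm per kb) and lower in every one with IKVAV (14.4 to 17.4 against 17.7 to 18.5). These ranges were apart by little, and neither gene passed between the mimics in T47D cells (adjusted p = 0.461 for HYAL2 and 0.486 for CD44, edgeR). The order of the genes also rests on a single table length for each. KIAA1199 in T47D cells was at 0.193 to 0.311 cpm per kb.

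**Figure D4:**
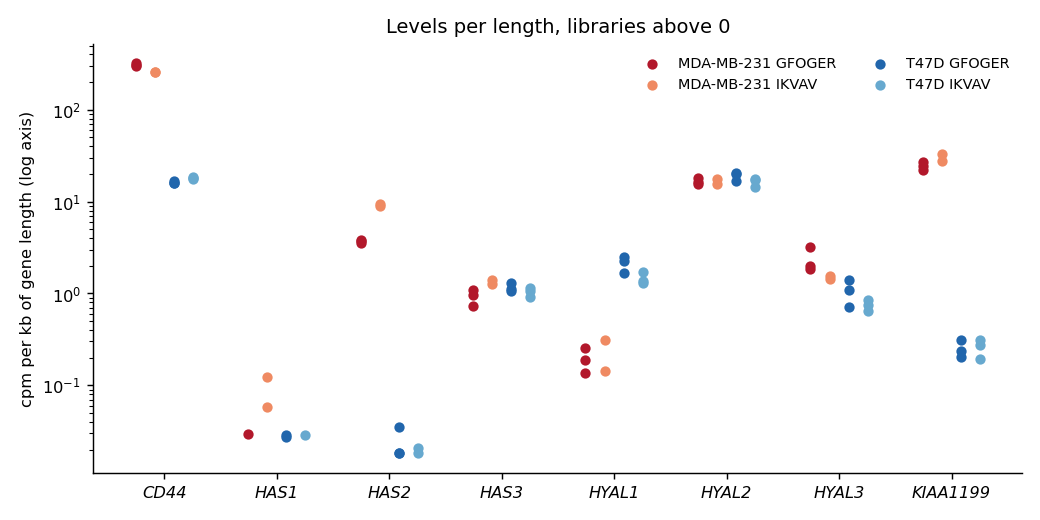
Level of each member in cpm per kilobase of gene length (log axis) in every library with a count above 0, colored by cell line and mimic. CD44 in MDA-MB-231 libraries, at 255 to 319, is the highest of all points, and the HAS1 points and the HAS2 points of T47D libraries lie lowest.

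Some members share sequence with a neighbour in the table, and the overlaps are given as spans with the bases shared between annotated exons (GENCODE). HAS2 overlaps HAS2-AS1 on the opposite strand by 2045 bases (251 exonic), and that antisense gene held 18 to 29 counts with GFOGER and 52 to 70 with IKVAV in MDA-MB-231 cells and 0 or 1 in T47D cells. Its counts were thus apart between the mimics in the same direction as those of HAS2. HAS3 overlaps the opposite-strand gene CHTF8 by 708 bases (365 exonic), and CHTF8 held 1151 to 1761 counts per library against 62 to 114 for HAS3. HYAL3 overlaps NAT6 (now NAA80), on its own strand, by 3020 bases (232 exonic). NAT6 held 143 to 265 counts in MDA-MB-231 libraries and 43 to 108 in T47D libraries, so HYAL3 and NAT6 were both higher in MDA-MB-231 cells and how reads from the shared exon bases were split between them is uncertain. The library kit keeps strand, but the strand setting of the counting is not given in the sources used here. KIAA1199 spans MIR549, which held no count.

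For each tested member, the 3 genes with the smallest root mean square difference from its centred log2 profile over the 11 libraries were listed. A prior count of 2 was added before the log2, which narrows differences that reach down to the floor. Nearest to CD44 were ZC3H12C (0.101), ITGA2 (0.109) and PAGE5 (0.139), against a spread of CD44 itself of 2.03. ITGA2, a subunit of a collagen-binding integrin, was at 959 ± 52.9 cpm with GFOGER and 721 ± 9.70 with IKVAV in MDA-MB-231 cells, and at 51.1 cpm with either mimic in T47D cells. Nearest to HAS2 were ETV1 (0.254), KIAA1462 (0.262) and APOBEC3G (0.279). ETV1, an ETS family transcription factor, was at 197 ± 7.64 cpm with GFOGER and 379 ± 2.85 with IKVAV in MDA-MB-231 cells. Nearest to KIAA1199 were LOX (0.206), DPP4 (0.220) and RPS6KA2 (0.230). LOX, a collagen crosslinking enzyme, was at 128 ± 2.02 and 140 ± 7.05 cpm in MDA-MB-231 cells and near 1 cpm in T47D cells (1.11 and 1.05). HYAL1 lay nearest to NUP210, HSD17B8 and TMEM105, HYAL3 to HCFC1R1, MARVELD1 and TMEM160, HYAL2 to FAM3A, TBCD and TADA3, and HAS3 to BCL9, VAV2 and ECH1. PAGE5, KIAA1462, APOBEC3G and DPP4 were under the floor on average in T47D cells, as HAS2 was, and TMEM105 in MDA-MB-231 cells. Their distances thus rest in part on the prior count. The points share libraries and, for all but HAS3 and HYAL2, a large gap between the cell lines. When likeness was measured by Pearson correlation, only 3 of the 21 genes stayed.

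Of 45 further genes of the pathway in 5 lists, 29 could be tested between the mimics in MDA-MB-231 cells. Of these, 9 rose with GFOGER and 4 fell, beside the 21.4% of all genes in each direction. The same background applies to the MDA-MB-231 counts of each list below. In T47D cells 0 of 24 passed in edgeR and 0 of 19 in DESeq2, with 2 at an unadjusted p below 0.05.

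Enzymes that make the precursor sugars had the most genes that passed in MDA-MB-231 cells, with 4 of 7 higher with GFOGER and 1 lower (median log2 fold change 0.40). UAP1, which makes UDP-N-acetylglucosamine, stood at 119 ± 9.09 cpm with GFOGER (SD, n = 3) and 45.9 ± 1.59 with IKVAV (n = 2), a log2 fold change of 1.37 (SE 0.111, adjusted p = 6.94e-08, edgeR). GNPNAT1, an earlier enzyme of that route, rose by 0.68 and UGP2, which makes UDP-glucose, by 0.53. In T47D cells UAP1 was at 59.5 ± 1.07 and 53.0 ± 5.40 cpm, and its response differed between the lines by 1.21 (adjusted p = 7.58e-06). The 1 that fell with GFOGER, as HAS2 did, was GFPT2, an entry enzyme of the hexosamine route, by 0.36 (adjusted p = 0.00671). GFPT2 stood at 76.5 cpm with GFOGER and 97.8 cpm with IKVAV in MDA-MB-231 cells. GFPT1, the other GFPT gene of this list, was more abundant there, at 199.7 and 190.6 cpm. GFPT1 did not pass between the mimics (0.0605, adjusted p = 0.668, edgeR). Both GFPT genes are named here after their values were seen.

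Of the 5 tested genes in the list of hyaluronan-binding matrix proteins, 1 rose and 2 fell with GFOGER in MDA-MB-231 cells (median -0.20). PTX3, a pentraxin of hyaluronan-rich matrices, was at 91.4 ± 1.26 cpm with GFOGER and 23.2 ± 3.48 with IKVAV, and rose by 1.97 (SE 0.123, adjusted p = 3.71e-09). ITIH4, of the inter-alpha-trypsin inhibitor heavy chain family, was at 2.94 ± 0.369 and 12.6 ± 0.818 cpm, and fell by 2.101 (SE 0.194, adjusted p = 3.36e-07). It was listed by its family, and whether it binds hyaluronan itself was not examined. ITIH2 fell by 1.39 (adjusted p = 0.0453) on 4 to 21 counts per library, and its call was lost under 7 of 14 alternatives, among them the omission of any 1 library other than GFOGER replicate 1.

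Of 8 tested CD44 partners, 4 rose with GFOGER and 0 fell in edgeR (median 0.39). In either direction 5 had an unadjusted p below 0.05, and DESeq2 passed 4. MSN and EZR, which link CD44 to actin, rose by 0.52 (adjusted p = 0.000229) and 0.46 (adjusted p = 0.000676), and ADAM17, a protease that sheds surface proteins, by 0.42 (adjusted p = 0.0052). The ADAM17 call was lost without IKVAV replicate 1 (0.37, adjusted p = 0.0961). Of 5 other degrading enzymes, HEXA, a subunit of lysosomal beta-hexosaminidase, fell by 0.66 (adjusted p = 2.76e-05) and 0 rose in edgeR (median -0.0041), with HEXA also the 1 gene at an unadjusted p below 0.05 and the number passed by DESeq2 again 1. None of the 4 tested other receptors passed in edgeR or DESeq2, also at an unadjusted p below 0.05 in edgeR (median 0.096).

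**Figure D5:**
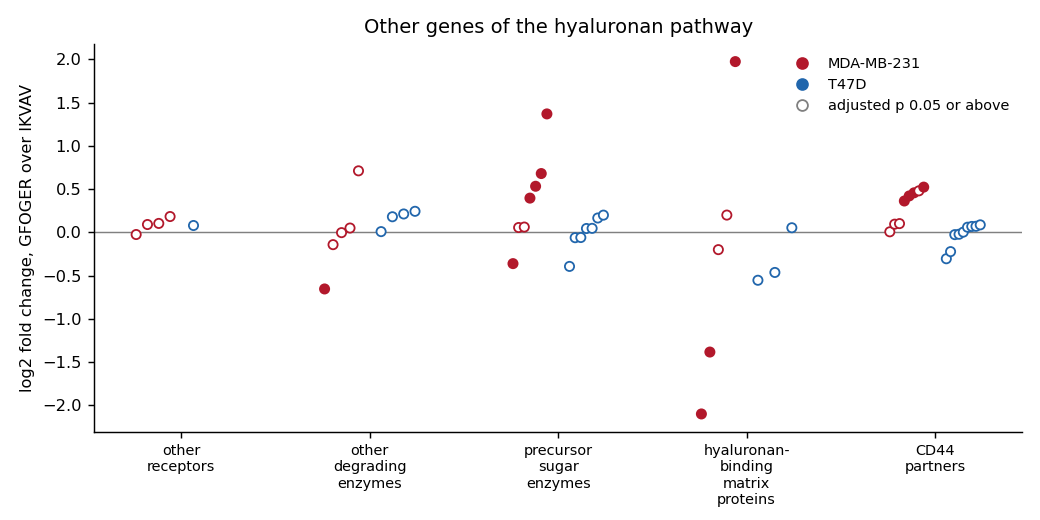
Log2 fold change of GFOGER over IKVAV (vertical axis) for the tested genes of 5 pathway lists (horizontal axis) in MDA-MB-231 cells (red) and T47D cells (blue); filled points have an adjusted p below 0.05. Filled red points range from ITIH4 at -2.101 to PTX3 at 1.97, and no blue point is filled.

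Between the lines all 31 tested pathway genes passed, with 21 higher in MDA-MB-231 cells and 10 higher in T47D cells, beside backgrounds of 42% and 42.5%. The filter on low counts keeps genes that are high in only 1 line. Among such genes, TLR4, TLR2, LAYN, HYAL4, PTX3, HAPLN3 and ITIH2 did not pass it within T47D cells, nor did ESRP1 and BCAN within MDA-MB-231 cells. For these genes a difference was largely set in advance by the filter. By list, higher and lower counts were 3 and 1 for other receptors (median 7.91), 4 and 1 for other degrading enzymes (1.58), 6 and 1 for precursor enzymes (0.79), 4 and 2 for matrix proteins (2.14) and 4 and 5 for CD44 partners (-0.21). TLR4, TLR2 and LAYN, which are receptors reported to bind hyaluronan or its fragments, held 1593 to 1955, 319 to 389 and 715 to 923 counts in MDA-MB-231 libraries and at most 4, 4 and 6 in T47D libraries. HMMR, the remaining tested receptor and named after its values were seen, was lower in MDA-MB-231 cells by 3.55 (SE 0.0849). TMEM2, a surface hyaluronidase, was higher by 1.95, HEXA by 1.58, and HYAL4, a relative that acts mainly on chondroitin sulfate, held 6 to 19 against 0 or 1 counts. Among precursor enzymes GFPT2 was higher by 5.03, UGDH, which makes UDP-glucuronic acid, by 2.04, and GNPNAT1 was lower by 1.32. PTX3 held 343 to 1617 against 1 to 4 counts and HAPLN3, a link protein, 91 to 121 against 0 or 1, while versican (VCAN) was lower by 3.28. MSN was higher by 8.90 and MMP14, a membrane protease that cuts CD44, by 9.18. ESRP1, an epithelial splicing factor that acts on CD44 transcripts, was measured with GFOGER at 293 ± 5.15 cpm in T47D cells and at 0.407 ± 0.142 cpm for MDA-MB-231 (SD, n = 3 each).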

How the data were processed

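RNA was sequenced as stranded, poly(A)-selected libraries from MDA-MB-231 and T47D cells. Per the labels and the methods, reads were trimmed and aligned to hg19, and the submitters' processing notes name Trim Galore 0.4.4, TopHat2 2.1.0 and HTSeq 0.6.1p1 for gene counts. The deposited table, made by the authors, holds raw counts per gene for 11 of 12 samples, deposited RPKM values and a gene length. The totals implied by the RPKM values fell into sets of 5191201 to 5774966 (5 libraries) and 19898878 to 22840524 (6 libraries), so RPKM served as an alternative only. The lower set held MDA-MB-231 IKVAV replicate 1, T47D IKVAV replicate 3 and every T47D GFOGER library. Of 24656 rows, 1288 that repeat a symbol were left out (6 of them with a count).

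Counts were tested here with edgeR 4.0.16 (R 4.3.3; TMM, filterByExpr, quasi-likelihood F test with the robust option), with Benjamini-Hochberg adjustment over all genes tested. A gene passed at an adjusted p below 0.05, and its call, whether kept or lost, refers to this threshold. Where members or genes are counted as called, they were also over 2-fold. Mimics were compared within each line. The cell line difference and the interaction came from 1 fit of the 4 groups. Standard errors are the fold change over the square root of F. Levels are TMM cpm over all 11 libraries, divided by gene length where genes are compared. The scripts were tested on simulated counts. Total counts of 14337035 to 18449108 per library set the floor of 3 counts, and intervals and floors cover counting error only. DESeq2 1.42.0, other scalings and filters, a replicate block, the RPKM sets as a term and the omission of each library were alternatives.

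Replicate numbers are shared by the groups, but deviations of same-numbered libraries correlated between -0.185 and 0.0425 over 15 pairs, so they were not treated as pairs. The members and lists were chosen with earlier results of these data known. The text names all members, up to 3 genes per list and comparison (smallest adjusted p between mimics, largest difference past 2-fold between lines), the 3 nearest genes in pattern, overlapping genes and markers. Promoters came from RefSeq (GRCh38.p14), with KIAA1199 matched as CEMIP through RefSeq synonyms, and strands from GENCODE on GRCh37.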

Additional observations from a re-analysis of the deposited data

Results flagged for a closer look

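For CD44 and 10 further genes of the hyaluronan pathway, the response to GFOGER over IKVAV differed between the cell lines by the interaction test (edgeR, adjusted p from 7.58e-06 to 0.0418). They were 1 of 7 tested members, a positive difference, and 10 of 31 tested pathway genes, with 7 positive and 3 negative. Of all 15310 genes tested, 10.8% were positive and 10.1% negative. CD44 differed by 0.41 on the log2 scale, from a fold change of 0.25 in MDA-MB-231 and one of -0.15 in T47D. Of the precursor sugar enzymes, the difference was 1.21 for UAP1, 0.64 for GNPNAT1 and 0.47 for PGM3. In the matrix protein list it was 2.23 for PTX3, which T47D cells held at 1 to 4 counts per library, and -1.63 for ITIH4. Of the lysosomal enzymes it was -0.86 for HEXA and -0.38 for GUSB. Of the CD44 partners it was 0.75 for MSN, 0.40 for EZR and 0.43 for ADAM17. The calls for UAP1, HEXA and ITIH4 held with any 1 library left out. Without MDA-MB-231 IKVAV replicate 2 the adjusted p was 0.0722 for CD44, 0.13 for GUSB, 0.0863 for GNPNAT1, 0.0956 for PGM3, 0.108 for EZR, 0.0531 for MSN and 0.0958 for ADAM17. The PTX3 call was lost without T47D IKVAV replicate 2 (adjusted p = 0.112), T47D IKVAV replicate 3 (0.107) or T47D GFOGER replicate 1 (0.068). The calls for GUSB, PGM3, MSN and ADAM17 were also lost without at least 1 other library. That of ADAM17 was lost under 14 of 20 alternatives, among them DESeq2 size factors (adjusted p = 0.0529), upper-quartile scaling (0.061), library size alone (0.0663), no filter on low counts (0.0665) and the RPKM library sets as a term (0.265). With those sets GUSB (0.137) and MSN (0.104) were lost as well. No group had 4 or more libraries, so no single library was tested for standing apart from its group.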

How the results depend on the processing

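Over the members' 27 fold changes and all alternatives there were 473 values, of which 433 kept direction and side of the threshold, 10 lost the threshold, 8 gained it and 22 changed sign. No sign change crossed the threshold. In MDA-MB-231 cells the number of members past the threshold (3) was 1 with the RPKM library sets as a term (CD44 and KIAA1199 were lost) and 1 to 4 when single libraries were left out. In that line the RPKM sets as a term in effect leave out IKVAV replicate 1, its only library of the lower set. Members called over 2-fold (1) became 0 with the 2-fold limit inside the test. In T47D cells the number past the threshold was 0 to 1 with single libraries left out, and for the interaction it was 0 to 2 (2 without MDA-MB-231 GFOGER replicate 3, where HAS3 joined at -0.82). Between the lines, 3 members instead of 5 passed, and were called, when 10 counts were required in every library, since fewer genes were then tested. Called members were 4 to 5 with single libraries left out. With deposited RPKM, 2 of 8 members kept their order of conditions. By Pearson correlation, 3 of 21 nearest genes stayed.

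Sign changes for HYAL2 in MDA-MB-231 cells were -0.025 (upper quartile), -0.016 (library size), -0.0049 (10 counts in every library), -0.048 (replicate block), -0.093 (RPKM sets) and, with single libraries left out, -0.088 to 0.11 (-0.052 without GFOGER replicate 3). HYAL1 there became 0.40 (RPKM sets) and ranged from -0.68 to 0.41 with single libraries left out (0.41 without IKVAV replicate 1). KIAA1199 in T47D cells became 0.37 (RPKM sets), and ranged from -0.25 to 0.091 with single libraries left out (0.074 without GFOGER replicate 3). HAS3 between the lines became -0.072 (upper quartile), -0.066 (library size), -0.00056 (no filter), and ranged from -0.046 to 0.094 with single libraries left out (others below 0 were -0.036, -0.025, -0.0057 and -0.017). The HYAL3 interaction ranged from -0.14 to 0.39 with single libraries left out (-0.081 without T47D GFOGER replicate 3). The cause was not tested.

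With the replicate block, 4 members passed in MDA-MB-231 cells (HAS3 joined at -0.67, adjusted p = 0.0124), 0 in T47D cells, 5 between the lines and 1 for the interaction. Of the other pathway genes, the block ended the interaction calls of GUSB (adjusted p = 0.0781), PGM3 (0.0638), EZR (0.0543) and ADAM17 (0.0711) and the ITIH2 call in MDA-MB-231 cells (0.168). Over all genes, those past the threshold ranged from 3396 to 8093 in MDA-MB-231 cells (6023 in the reported fit) and from 2 to 1080 in T47D cells (15), where 1080 came without IKVAV replicate 3. For the interaction the lowest was 1813 against 3209. With the 2-fold limit inside the test, genes called fell from 1348 to 403 in MDA-MB-231 cells, from 4 to 0 in T47D cells and from 979 to 131 for the interaction. Those in T47D cells reached 92 at most, again without IKVAV replicate 3. With that library left out, mimic and RPKM set cannot be told apart in T47D cells. Between the lines, 4093 instead of 7090 genes were called when 10 counts were required. The fit without the robust option was added after the data were seen. A fit of all 12 samples was not run.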
